A study of Mus musculus with 4 samples.

Results

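The 10 genes described here mark the interneurons of the striatum: Pvalb, Pthlh, Lhx6, Nos1, Chat, Slc5a7, Lhx8, Ache, Th and Calb2. They were taken by symbol from a table of 25259 genes, and all 10 were present. Each was above 0 in all 46 libraries and had a mean of at least 10 normalised reads, the level required for testing. Messenger RNA had been sequenced from dorsomedial striatum (DMS) and dorsolateral striatum (DLS), cut by laser capture from frozen brains of 8-week-old C57BL/6 mice. The mice were wild-type or homozygous for a humanised allele of the transcription factor gene Foxp2 (Foxp2hum/hum). There were 11 libraries of wild-type DMS, 12 of Foxp2hum/hum DMS, 11 of wild-type DLS and 12 of Foxp2hum/hum DLS. The labels do not say which libraries came from the same animal, so p-values measure the spread between libraries, which may in part be technical.

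Most neurons of the striatum are medium spiny projection neurons, and interneurons make up the small remainder. Fast-spiking interneurons contain the calcium buffer parvalbumin and inhibit projection neurons close to the cell body, while cholinergic interneurons are large, tonically active cells that supply most of the acetylcholine of the striatum. Further GABA interneurons contain nitric oxide synthase together with somatostatin and neuropeptide Y, or calretinin, or tyrosine hydroxylase. All values below are normalised read counts, that is, reads assigned to a gene divided by a size factor of the library.

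Library totals ran from 16.79 to 41.01 M reads (M for mega), with group medians between 20.43 M and 24.36 M. The 6 medium spiny neuron markers (among them Ppp1r1b, Drd1a, Drd2, Adora2a and Rgs9) were abundant in every library, with a summed level of at least 51950. Other cells were also present. The 6 choroid plexus and ependyma markers summed to between 176 and 10300.2 in wild-type DMS and between 382 and 6777 in Foxp2hum/hum DMS. In DLS the same sum lay between 50.7 and 232 in wild-type and between 52.1 and 142 in Foxp2hum/hum, with Ttr at 0 in 5 of 11 and 4 of 12 libraries. The 6 cortical glutamatergic markers summed to between 68.1 and 1151 across the groups.

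Pvalb, the parvalbumin gene (ENSMUSG00000005716, mm9 chromosome 15, 78021544 to 78036830, minus strand), was the member with the largest difference between regions. Its 250 bases before the start site are shown with those of Chat and Slc5a7, the cholinergic genes that were also lower in DMS, because these 3 members had the largest regional differences that passed the test. The sequences are RefSeq windows (GRCm38.p6) that match the mm9 genome exactly and end at the base before the GENCODE start of the gene. They are written in the direction of transcription, with any match to a searched motif in capitals.
Pvalb, mm9 chr15:78036831-78037080, minus strand: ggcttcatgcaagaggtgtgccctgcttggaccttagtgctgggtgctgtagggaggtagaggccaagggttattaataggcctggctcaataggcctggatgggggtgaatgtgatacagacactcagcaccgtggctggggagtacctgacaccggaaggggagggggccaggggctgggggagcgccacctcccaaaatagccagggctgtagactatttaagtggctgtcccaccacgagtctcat
Chat, mm9 chr14:33279096-33279345, minus strand: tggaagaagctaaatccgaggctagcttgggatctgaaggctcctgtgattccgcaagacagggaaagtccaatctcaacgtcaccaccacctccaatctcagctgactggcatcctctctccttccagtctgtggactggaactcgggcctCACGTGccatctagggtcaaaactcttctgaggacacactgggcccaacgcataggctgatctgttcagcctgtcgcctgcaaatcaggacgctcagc
Slc5a7, mm9 chr17:54438360-54438609, minus strand: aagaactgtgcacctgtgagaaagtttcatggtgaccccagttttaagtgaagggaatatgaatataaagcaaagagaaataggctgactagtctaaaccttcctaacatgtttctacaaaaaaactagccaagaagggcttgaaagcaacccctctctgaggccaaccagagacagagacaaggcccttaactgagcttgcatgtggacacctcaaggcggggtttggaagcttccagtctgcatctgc
The motifs searched on both strands were the LIM-homeodomain core TAATTA, the cAMP response element TGACGTCA, the E-box CACGTG and the Sp1 GC box GGGCGG. Of 32851 RefSeq windows of the same length, 4.84% held TAATTA, 1.55% held TGACGTCA, 6.02% held CACGTG and 32.7% held GGGCGG. The Chat window held CACGTG once, as did the window of Ache, and the windows of Pvalb and Slc5a7 held none of these motifs. The windows of other members did not all end at the GENCODE start: the RefSeq start of the nearest window lay 85807 bases from it for Nos1, 31133 bases for Th and 735 bases for Ache. That window of Th held TGACGTCA once. GGGCGG was found 4 times each in the nearest windows of Ache and Pthlh and once each in those of Lhx6 and Th. RefSeq windows were matched for 9 of the 10 members, the exception being Calb2. A match describes the letters and is not a measured binding site.

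In wild-type mice Pvalb ran from 44.04 to 102.6 in DMS, with a median of 68.4, and from 174 to 541 in DLS, with a median of 323. Every DLS library was above every DMS library. The mean was 68.6 ± 18.1 in DMS against 320 ± 108 in DLS (SD, n = 11 each), which is 4.51-fold lower in DMS on the log2(value + 1) scale (95% interval 3.39 to 5.99). In Foxp2hum/hum mice Pvalb ran from 24.3 to 95.2 in DMS, with a median of 44.7, and from 160 to 604 in DLS, with a median of 275. Again no DMS library reached the lowest DLS library, and the means were 50.8 ± 20.8 and 326 ± 122 (SD, n = 12 each), 6.36-fold lower in DMS (95% interval 4.84 to 8.34). The log2 difference was -2.17 (SE 0.20, limma adjusted p = 5.22e-12) in wild-type and -2.67 (SE 0.20, limma adjusted p = 1.3e-15) in Foxp2hum/hum. In order of mean level the groups were Foxp2hum/hum DMS, wild-type DMS, wild-type DLS and Foxp2hum/hum DLS, and only the step from DMS to DLS passed the test. In bulk tissue, fewer cells of a type and less RNA per cell cannot be told apart, for Pvalb and for every other member. Reads from captured cells of neighbouring tissue may also be included. Of 4 markers of the globus pallidus, Kcng4 was lower in DMS in each genotype, Etv1 was higher, and Npas1 and Nkx2-1 did not pass. The part of pallidal cells in the Pvalb difference was not tested.

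Pthlh, which encodes parathyroid hormone-related protein and is expressed in parvalbumin interneurons of the striatum (ENSMUSG00000048776, chromosome 6, 147200623 to 147212689, minus strand), did not share the direction of Pvalb. In wild-type it ran from 122 to 276 in DMS (median 162) and from 84.5 to 182 in DLS (median 115). The groups overlapped, with 2 of 11 DMS libraries above the highest DLS library. The mean was 175 ± 44.7 in DMS against 123 ± 28.8 in DLS (SD, n = 11 each), and Pthlh was 1.42-fold higher in DMS (log2 0.50, SE 0.16, limma adjusted p = 0.0244). This call was lost when library 76 or library 24 of wild-type DMS or library 77 of wild-type DLS was left out, with a limma adjusted p of 0.0613, 0.0519 and 0.0526. In Foxp2hum/hum the means were 147 ± 28.7 and 131 ± 38.02 (SD, n = 12 each), a log2 difference of 0.22 that did not pass (SE 0.16, limma adjusted p = 0.365). The difference between the genotypes in this regional difference was -0.28 (SE 0.23, limma adjusted p = 1).

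The ratio of Pvalb to Pthlh within a library was 0.419 ± 0.151 in wild-type DMS and 2.63 ± 0.773 in wild-type DLS (SD, n = 11 each). In Foxp2hum/hum it was 0.355 ± 0.167 in DMS against 2.63 ± 0.965 in DLS (SD, n = 12 each). The highest DMS ratios, 0.66 for wild-type and 0.762 for Foxp2hum/hum, were below the lowest DLS ratios of 1.61 and 1.43. These ratios use the same values as the differences above and add no independent evidence.

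Lhx6, a LIM-homeodomain transcription factor gene of interneurons that arise in the medial ganglionic eminence (ENSMUSG00000026890, chromosome 2, 35937470 to 35960928, minus strand), was also on the higher side in DMS. Its wild-type values ran from 213 to 415 in DMS (median 319) and from 98.8 to 295 in DLS (median 223), and 7 of 11 DMS libraries were above the highest DLS library. The means were 307 ± 67.2 and 227 ± 54.9 (SD, n = 11 each), 1.37-fold higher in DMS (log2 0.45, SE 0.13, limma adjusted p = 0.0127). With the level of Ttr, a choroid plexus gene, as a covariate the log2 difference was 0.39 and no longer passed (limma adjusted p = 0.0762). Over the 14 alternatives other than leaving out single libraries, this wild-type difference ran from 0.37 to 0.998, and the call was lost in 2. In Foxp2hum/hum Lhx6 averaged 267 ± 60.7 in DMS against 218 ± 24.9 in DLS (SD, n = 12 each), a log2 difference of 0.27 (SE 0.13, limma adjusted p = 0.152). The interaction was -0.18 (SE 0.18, limma adjusted p = 1), so a dependence of the Lhx6 difference on genotype was not detected.

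Nos1, the neuronal nitric oxide synthase gene (ENSMUSG00000029361, chromosome 5, 118231041 to 118408849, plus strand), varied widely between libraries of every group. Wild-type values ran from 218 to 929 in DMS (median 499.9) and from 193 to 948 in DLS (median 556). In Foxp2hum/hum they ran from 164 to 762 (median 342) and from 207 to 910.0 (median 473). The ranges of the 2 regions covered each other almost fully. The log2 difference between DMS and DLS was -0.22 (SE 0.26, limma adjusted p = 0.618) in wild-type and -0.34 (SE 0.24, limma adjusted p = 0.381) in Foxp2hum/hum. With the share of mitochondrially encoded reads as a covariate, a setting chosen after seeing the data, the difference in Foxp2hum/hum was -0.60 and passed (limma adjusted p = 0.0234). The neuropeptides made by the same interneurons, Sst (log2 0.13 and -0.08 in the order wild-type, Foxp2hum/hum) and Npy (0.04 and -0.04), did not pass.

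**Figure D1:**
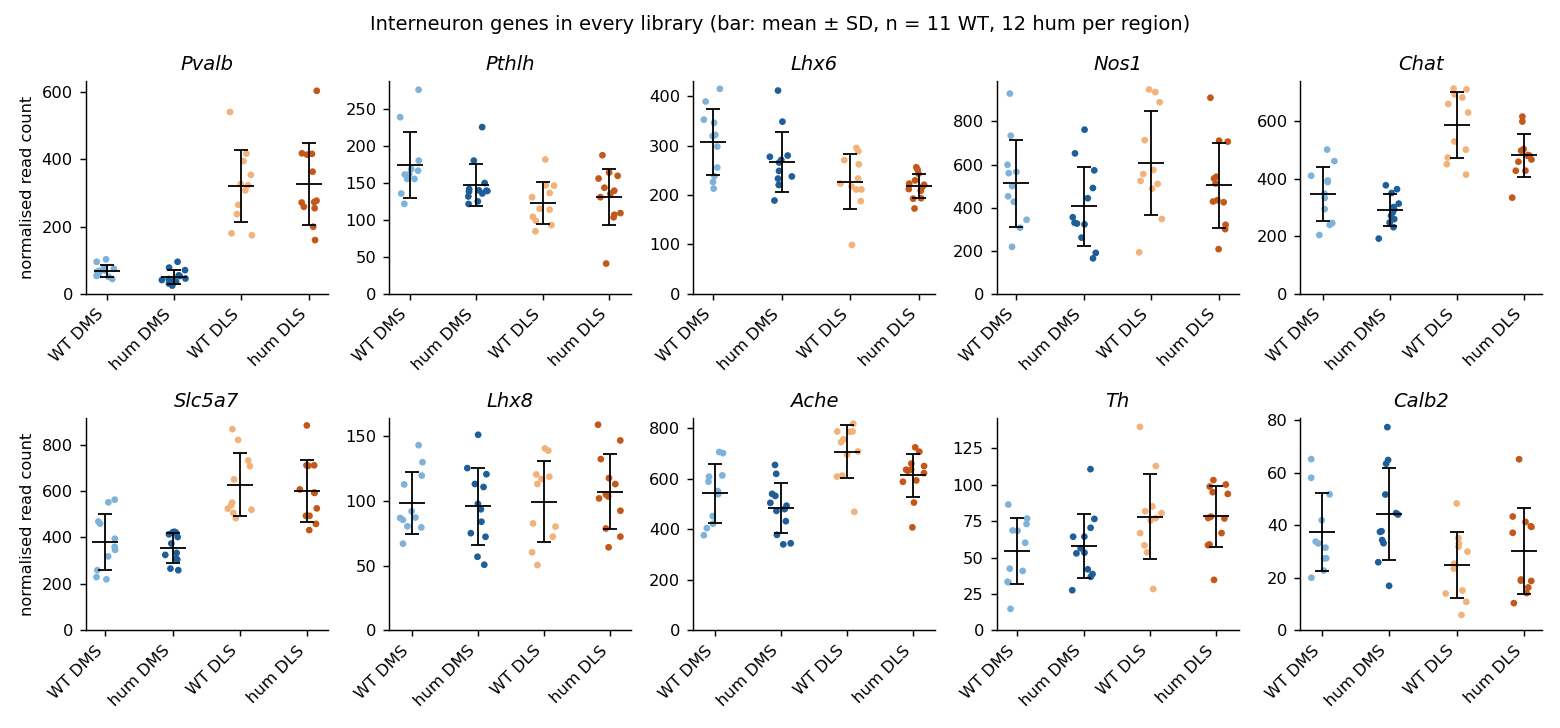
Normalised read count (vertical axis, from 0) of each of the 10 genes in every library of wild-type (WT) and Foxp2hum/hum (hum) DMS and DLS. Points are libraries and bars are the mean ± SD (n = 11 wild-type and 12 Foxp2hum/hum libraries per region); all Pvalb values in DMS lie at or under 102.6 and all those in DLS at or above 160.

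Among the cholinergic members, the genes for making and recycling the transmitter were lower in DMS in both genotypes. With the choroid plexus gene Ttr and the ciliary gene Ccdc153 as covariates together these calls were lost. Ccdc153 itself ran from 40.6 to 308 in wild-type DMS and reached at most 2.15 in wild-type DLS. In Foxp2hum/hum it ran from 89.2 to 326 in DMS and reached at most 27.9 in DLS. Its level and the region thus cannot be told apart, so that fit cannot decide what part these cells have in the difference. Chat, which encodes the acetylcholine-synthesising enzyme choline acetyltransferase (ENSMUSG00000021919, chromosome 14, 33221389 to 33279095, minus strand), ran from 204 to 501 in wild-type DMS (median 348) and from 414 to 713 in wild-type DLS (median 629). Of 11 DLS libraries, 7 were above the highest DMS library. The means were 347 ± 94.7 and 586 ± 114 (SD, n = 11 each), 1.72-fold lower in DMS (95% interval 1.44 to 2.06, limma adjusted p = 6.74e-06). In Foxp2hum/hum Chat ran from 192 to 377 in DMS (median 288) and from 334 to 615 in DLS (median 479), with 11 of 12 DLS libraries above the highest DMS library. The means were 290.1 ± 55.2 and 481 ± 74.2 (SD, n = 12 each), 1.66-fold lower in DMS (95% interval 1.401 to 1.98, limma adjusted p = 8.29e-06). With the 2 covariates the log2 difference of Chat was -0.32 in wild-type (limma adjusted p = 0.593) and -0.38 in Foxp2hum/hum (limma adjusted p = 0.488). A long non-coding RNA gene on the opposite strand, AC154412.2, overlaps the start of Chat and averaged 6.16% of its value, so reads of these genes could not be told apart there. Slc18a3, the vesicular acetylcholine transporter gene known to lie within Chat, was not analysed here, and its reads may be part of the Chat value.

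Slc5a7, the gene of the high-affinity choline transporter that returns choline to the terminal (ENSMUSG00000023945, chromosome 17, 54412919 to 54438359, minus strand), was lower in DMS by a similar factor. It ran from 220 to 563 in wild-type DMS (median 359.8) and from 483 to 866 in wild-type DLS (median 550). In Foxp2hum/hum the ranges did not meet, at 259 to 425 in DMS (median 354) and 432 to 882 in DLS (median 593). It was 1.70-fold lower in wild-type DMS (379 ± 121 against 627 ± 135, SD, n = 11 each, limma adjusted p = 5.16e-05). In Foxp2hum/hum DMS it was 1.68-fold lower (355 ± 62.5 against 601 ± 132, SD, n = 12 each, limma adjusted p = 3.18e-05). With Ttr and Ccdc153 as covariates its log2 difference was -0.50 in wild-type (limma adjusted p = 0.424) and -0.61 in Foxp2hum/hum (limma adjusted p = 0.298). The within-library ratio of Chat to Slc5a7 averaged 0.945 ± 0.210 in wild-type DMS and 0.947 ± 0.150 in wild-type DLS (SD, n = 11 each), and 0.835 ± 0.180 and 0.837 ± 0.225 in the same regions of Foxp2hum/hum (SD, n = 12 each).

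Ache, the gene of acetylcholinesterase, which breaks the transmitter down (ENSMUSG00000023328, chromosome 5, 137728747 to 137735694, plus strand), was lower in DMS by a smaller factor. Its wild-type range was 376 to 705 in DMS (median 551) and 469 to 817 in DLS (median 744), and in Foxp2hum/hum it was 340.4 to 654 (median 487) and 408 to 724 (median 633). The groups overlapped in both genotypes. The means were 542 ± 115 and 706 ± 105 in wild-type (SD, n = 11 each), 1.32-fold lower in DMS (limma adjusted p = 0.0103), and 483 ± 98.8 and 613 ± 85.7 in Foxp2hum/hum (SD, n = 12 each), 1.28-fold lower (limma adjusted p = 0.015). With Ttr and Ccdc153 as covariates the log2 difference of Ache changed sign and did not pass, at 0.049 in wild-type (limma adjusted p = 0.94) and 0.0042 in Foxp2hum/hum (limma adjusted p = 0.994).

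Lhx8, a LIM-homeodomain factor gene needed for the cholinergic fate (ENSMUSG00000028201, chromosome 3, 153969260 to 153993615, minus strand), did not show this difference. Its means were 98.4 ± 23.99 in DMS and 99.4 ± 31.4 in DLS in wild-type (SD, n = 11 each), and 95.8 ± 29.7 and 107.1 ± 28.8 in Foxp2hum/hum (SD, n = 12 each). The log2 difference was 0.02 (95% interval -0.34 to 0.38, limma adjusted p = 0.954) in wild-type and -0.18 (95% interval -0.52 to 0.17, limma adjusted p = 0.544) in Foxp2hum/hum. The wild-type interval lies above the value of -0.78 found for Chat. The ratio of Chat to Lhx8 within a library averaged 3.62 ± 1.09 in wild-type DMS and 6.36 ± 1.94 in wild-type DLS (SD, n = 11 each).

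Th, which encodes tyrosine hydroxylase, the rate-limiting enzyme of catecholamine synthesis (ENSMUSG00000000214, chromosome 7, 150078657 to 150117033, minus strand), was low. It ran from 14.8 to 86.3 in wild-type DMS (median 60.2) and from 28.4 to 140 in wild-type DLS (median 77.04), and from 27.6 to 111 (median 54.9) and from 34.7 to 103 (median 77.6) in Foxp2hum/hum. The groups overlapped over most of their range. The log2 difference was -0.56 (SE 0.24, limma adjusted p = 0.105) in wild-type and -0.47 (SE 0.23, limma adjusted p = 0.169) in Foxp2hum/hum. In wild-type it passed with quantile normalisation (-0.68, adjusted p = 0.0462) and without library 58 of wild-type DLS (-0.69, adjusted p = 0.0321). The RefSeq start of Th lies 31133 bases inside the GENCODE span of 38377 bases. If reads were counted over the whole span, the Th values may include reads from before that start, which was not tested.

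Calb2, the calretinin gene (ENSMUSG00000003657, chromosome 8, 112661402 to 112692110, minus strand), was the least abundant member. It ran from 20.1 to 65.2 in wild-type DMS (median 33.1) and from 5.9 to 48.3 in wild-type DLS (median 25.4), and from 16.999 to 77.4 (median 40.95) and from 10.4 to 65.2 (median 28.3) in Foxp2hum/hum. Its log2 difference was 0.68 (SE 0.29, limma adjusted p = 0.109) in wild-type and 0.62 (SE 0.28, limma adjusted p = 0.128) in Foxp2hum/hum. With array weights, which give less weight to noisy libraries, the wild-type difference was 0.80 and passed (adjusted p = 0.0303).

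Counted together, 2 of the 10 members were higher and 4 were lower in wild-type DMS, where 17.3% of the 19561 tested genes passed, 8.54% higher and 8.72% lower. In Foxp2hum/hum 0 members were higher and 4 were lower, and 18.1% of tested genes passed, 9.33% higher and 8.82% lower. The median log2 difference of the members was -0.31 (wild-type) and -0.35 (the humanised genotype), against 0.0067 and 0.018 over all tested genes. Groups that did not overlap between the regions were found for 1 of 10 members in wild-type (Pvalb) and for 2 of 10 in Foxp2hum/hum (Pvalb and Slc5a7), against 1.95% and 2.2% of tested genes. The 4 lower members, Pvalb, Chat, Slc5a7 and Ache, were also the 4 called by edgeR and DESeq2 on whole reads in Foxp2hum/hum, and these tools called 6 members in wild-type as well.

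Markers of other cells differed between the regions alongside these genes. Of the 6 choroid plexus and ependyma markers 5 were higher in DMS in each genotype, as were 5 of the 6 neuroblast markers, for which the sums lay between 4045 and 6995 in DMS and between 2668 and 3710.1 in DLS. The neuroblast sums were mostly Tubb2b, which averaged 3650 in wild-type DMS and 2609 in wild-type DLS, against 317 and 51.5 for Dcx. All 6 medium spiny neuron markers were lower in DMS in each genotype, with a median log2 difference of -0.60 in wild-type and -0.62 in Foxp2hum/hum. Of the 4 pallidal markers Kcng4 was lower in DMS (log2 -2.69 and -2.99), at 33.7 in wild-type DLS and 5.98 in wild-type DMS, and Etv1 was higher (0.33 and 0.44). The other 2, Npas1 and Nkx2-1, did not pass. The sum of the pallidal markers ran from 484 to 908 in DMS and from 476 to 747 in DLS, and was mostly Etv1, which averaged 601 in wild-type DMS and 480.4 in wild-type DLS, so it does not show the difference of Kcng4. Of the 5 septal and basal forebrain markers 2 were lower in wild-type DMS (Zic1 and Onecut2) and 1 in Foxp2hum/hum (Zic4, which is also in the list of further cholinergic genes), with sums between 369 and 875 in DMS and between 518 and 1110 in DLS. Of the 5 cortical markers tested, 0 differed in wild-type and 1, Fezf2, was higher in Foxp2hum/hum DMS (log2 0.99). With the summed cortical level as a covariate the members called were as many as without it, 6 and 4. With Ttr and the ciliary gene Ccdc153 as covariates together, Pvalb was the only member called, with a wild-type difference of -2.76 (SE 0.55, limma adjusted p = 0.00225) and a Foxp2hum/hum difference of -3.17 (SE 0.50, limma adjusted p = 5.17e-05). In that fit the SE of Chat was 0.33 and 0.30, larger than the 0.13 and 0.12 without covariates. Ccdc153 did not overlap between the regions in either genotype, so the fit cannot tell its level from the region. The part of the other marker lists in the regional differences was not tested.

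**Figure D2:**
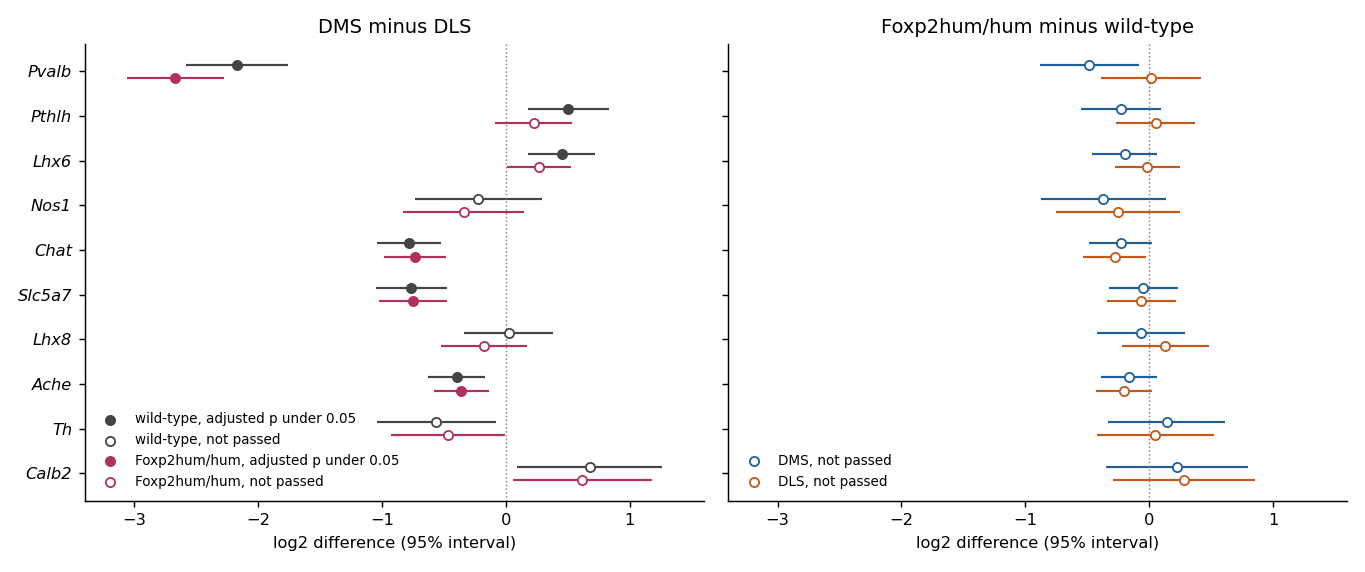
Log2 difference of the 10 genes between regions in each genotype (left) and between genotypes in each region (right), with 95% intervals from limma. Filled points passed at an adjusted p under 0.05; on the left these were 6 wild-type and 4 Foxp2hum/hum points, and on the right 0.

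Between genotypes 0 of the 10 members passed in DMS and 0 in DLS by limma, edgeR and DESeq2, and by limma 0% of tested genes did in either region. At an unadjusted p under 0.05 there was 1 member in each region, against 3.58% of tested genes in DMS and 4.31% in DLS. In DMS this was Pvalb, 1.397-fold lower in Foxp2hum/hum (log2 -0.48, 95% interval -0.88 to -0.08, limma adjusted p = 0.955). Of the 12 Foxp2hum/hum DMS libraries 6 were below the lowest wild-type library, while the others lay within the wild-type range. In DLS it was Chat, 1.21-fold lower in Foxp2hum/hum (log2 -0.28, 95% interval -0.53 to -0.02, limma adjusted p = 0.843). The 95% interval of the genotype difference lay within 2-fold for 10 of 10 members in each region, and within 1.5-fold for 6 in DMS and 8 in DLS. The widest of these intervals belonged to Calb2 and Nos1, for which 95% intervals in DMS ran from -0.35 to 0.80 and from -0.87 to 0.13.

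The interaction, the regional difference in Foxp2hum/hum minus that in wild-type, was called for 0 members, and 0 had an unadjusted p under 0.05, against 1.64% of tested genes. For Pvalb it was -0.50 (SE 0.28, unadjusted p = 0.0858, limma adjusted p = 1). Chat, Slc5a7 and Ache had interactions of 0.05 (SE 0.18), 0.02 (SE 0.20) and 0.04 (SE 0.16). These intervals, for example -0.31 to 0.41 for Chat, leave room for differences of modest size in either direction.

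Per kilobase of exon in the GENCODE annotation, which sets genes of different length on a common scale of level, Pvalb averaged 65.9 in wild-type DMS and 307 in wild-type DLS, the highest of the members in DLS. In wild-type DMS the highest were Chat at 123, Ache at 117 and Pthlh at 109.0, followed by Slc5a7 at 73.3. The lowest in wild-type DLS was Calb2, at 14.3. If reads were counted over whole gene spans, introns included, as 1 host gene with nested genes appeared to be, these levels are approximate for long genes such as Nos1.

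The wider set of parvalbumin and GABA interneuron genes, a list of 32 further genes that were all tested, had called members on both sides. In wild-type DMS 2 were higher and 9 were lower, where 8.54% and 8.72% of all tested genes were. In Foxp2hum/hum 4 were higher and 11 were lower, against 9.33% and 8.82% of tested genes, so the share called higher was near that of all genes in each genotype. The median log2 difference was -0.14 and -0.20. Those lower in both genotypes included Syt2, the calcium sensor of fast release (log2 -0.997 and -0.97), Vamp1, a vesicle fusion protein gene (-0.55 and -0.59), Cplx1, a complexin gene (-0.35 and -0.35), and Kcnc2, which encodes a Kv3 potassium channel (-0.65 and -0.74). The other potassium channel genes of the list did not pass in either genotype, with Kcnc1 at -0.28 and -0.42, Kcna1 at -0.12 and -0.12, and Kcna2 at -0.67 and -0.67. The neurofilament genes Nefm (-0.86 and -0.77) and Nefh (-0.50 and -0.44) were lower too, as were the transcriptional coactivator gene Ppargc1a (-0.52 and -0.73), Cacng2, which encodes an AMPA receptor auxiliary subunit (-0.47 and -0.42), and Gad1, a GABA-synthesising enzyme gene (-0.43 and -0.37). The second such enzyme gene, Gad2, was on the other side, at 0.29 in wild-type, where it did not pass, and 0.35 in Foxp2hum/hum, where it did. Both enzymes are also made by medium spiny neurons. Cplx1 and Nefm averaged 8438 and 7473 in wild-type DLS, against 320 for Pvalb. All 6 medium spiny neuron markers were lower in DMS too. The part of cells other than interneurons in the differences of this list was not tested.

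Chodl, known from the cortex as a marker of rare long-range cells that contain somatostatin and Nos1, was higher in DMS (log2 1.29 and 1.63, limma adjusted p = 0.0418 and 0.00457). It was low, at 29.5 ± 11.8 against 12.6 ± 6.15 in wild-type (SD, n = 11 each) and 30.5 ± 9.81 against 13.7 ± 9.77 in Foxp2hum/hum (SD, n = 12 each), where 2 DLS libraries were at 0. Erbb4, the neuregulin receptor gene of interneurons, was higher as well (0.64 and 0.43). In Foxp2hum/hum alone, Gria4, an AMPA receptor subunit gene (0.29), passed as higher, and Cck, the cholecystokinin gene (-0.71), and Maf, a transcription factor gene (-0.32), passed as lower. Of these, the wild-type differences were 0.25, -0.30 and -0.09, and 0 of the 32 genes were called in the interaction.

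Of 17 further cholinergic genes 16 were analysed here, and all 16 were tested. In wild-type DMS 0 were higher and 7 were lower, and in Foxp2hum/hum 0 were higher and 9 were lower, against 8.72% and 8.82% of all tested genes called lower. The median log2 differences were -0.59 and -0.77. Those lower in both genotypes included the anchors of acetylcholinesterase, Colq (log2 -1.29 and -1.98) and Prima1 (-1.23 and -1.18), and the vesicular transporter genes of cholinergic neurons, Slc17a8 for glutamate (-1.18 and -0.89) and the orphan Slc10a4 (-1.09 and -0.88). The endopeptidase gene Ecel1 (-0.83 and -0.78) and the substance P receptor gene Tacr1 (-0.66 and -0.77) were also in this group. Prima1 averaged 143 in DMS and 332 in DLS in wild-type, whereas Colq was scarce, at 6.4 and 17.9. The transcription factor genes Gbx2 (-0.50 and -1.16) and Zic4 (-1.11 and -1.80) passed in Foxp2hum/hum but not in wild-type, and 0 of the 16 genes were called in the interaction. Isl1, a factor gene shared by cholinergic and projection neurons, had intervals that included 0 in both genotypes.

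**Figure D3:**
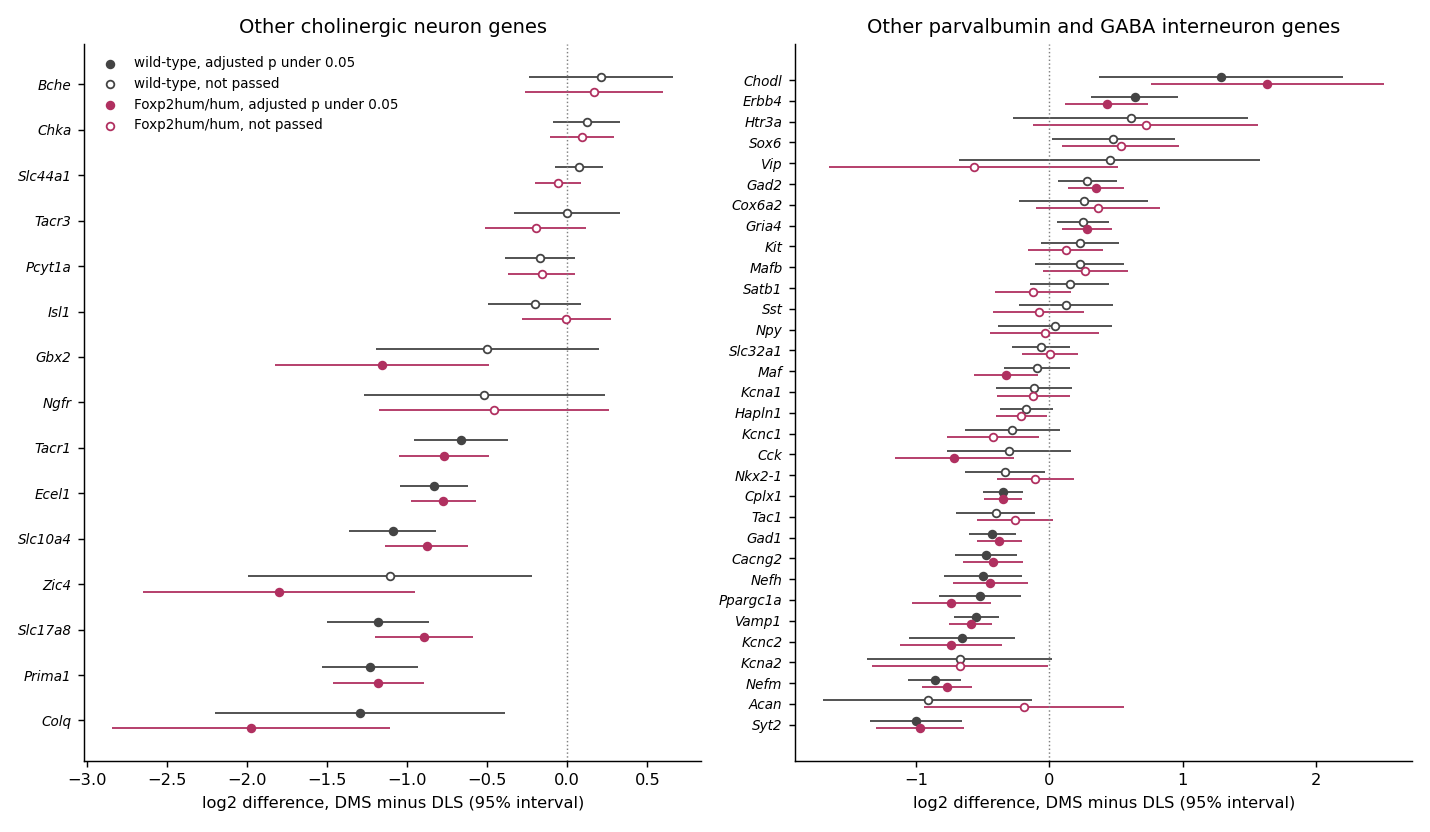
Log2 difference between DMS and DLS, with 95% intervals, for 15 of the further cholinergic genes (left) and 32 further parvalbumin and GABA interneuron genes (right), ordered by the wild-type value. Filled points passed at an adjusted p under 0.05; on the left they all lie under 0, on the right they lie on both sides.

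For Th, a list of 13 genes of dopamine synthesis and handling had 8 members that were tested. In wild-type DMS 0 were higher and 2 were lower, and in Foxp2hum/hum 0 were higher and 1 was lower, near the 17.3% and 18.1% of all tested genes called in either direction. Aldh1a1, a retinaldehyde dehydrogenase gene that also acts on dopamine metabolites, was lower in both (log2 -2.80 and -2.65), and Slc18a2, the vesicular monoamine transporter gene (-0.46 and -0.33), passed in wild-type. Ddc, which encodes the enzyme after Th in dopamine synthesis, was at 0.33 and 0.29 and did not pass. Slc6a3, the dopamine transporter gene of midbrain neurons, was too low to test, with a mean of 1.402 in wild-type DMS and 6.65 in wild-type DLS. Median log2 differences of the list were -0.01 and -0.08.

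Between genotypes, 0 of the 32, 16 and 8 tested genes of these lists passed in either region.

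Libraries also varied within groups, and some members varied together. After each group's mean was subtracted from log2(value + 1), 10 of the 45 pairs of members passed a two-sided permutation test of Pearson's r over 46 libraries (Benjamini-Hochberg over the 45 pairs), 9 of them positive. The share of passing pairs among other genes was not tested, so this count is not shown to be particular to the members. Ache and Chat had the highest r, 0.78 (permutation p = 1e-05, the smallest that 100000 permutations can give, adjusted p = 0.000225; Spearman's rho 0.71, permutation p = 1e-05). It lay between 0.76 and 0.81 in the 4 groups, and was 0.74 without the 2 libraries farthest from the median of Ache. Chat and Slc5a7 had r = 0.51 (permutation p = 0.00112, adjusted p = 0.0084; rho 0.49, permutation p = 0.00154), ranging from -0.09 to 0.78 between groups, and 0.40 without the 2 farthest libraries. Chat and Lhx8 had r = 0.39 (permutation p = 0.00824, adjusted p = 0.0371; rho 0.43, permutation p = 0.00381), and 0.33 without the 2 farthest.

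The only pair that passed with a negative r was Pvalb and Nos1, at -0.68 (permutation p = 1e-05, adjusted p = 0.000225; rho -0.62, permutation p = 3e-05). In the groups it ran from -0.82 to -0.47, and without the 2 farthest libraries it was -0.61. Lhx6 and Nos1 had r = 0.58 (permutation p = 9e-05, adjusted p = 0.00135; rho 0.65, permutation p = 1e-05; 0.62 without the 2 farthest libraries). Nos1 also had r = 0.54 with Chat (permutation p = 0.00019, adjusted p = 0.00214; rho 0.48, permutation p = 0.00151) and r = 0.53 with Ache (permutation p = 0.00026, adjusted p = 0.00234; rho 0.41, permutation p = 0.00686), or 0.48 and 0.44 without the 2 farthest libraries. Libraries high in Nos1 for their group thus tended to be low in Pvalb and high in Lhx6, Chat and Ache. The library lowest in Nos1 was also highest in Pvalb in wild-type DLS (51), Foxp2hum/hum DLS (60) and Foxp2hum/hum DMS (64). In wild-type DMS these were different libraries (50 and 65). Exon length is 10.9 kb for Nos1 and 1.04 kb for Pvalb, and its part in these relations was not tested.

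The members were also compared with 11 measures of each library, the 6 summed marker lists, the mitochondrial share, the total reads and the levels of Sst, Npy and Chodl, in 110 relations in all. Of these 25 passed on Pearson's r (adjusted p under 0.05 over the 110), 15 of them positive. How many such relations pass for other genes was not tested either. Pvalb rose with the share of mitochondrially encoded reads (r = 0.68, permutation p = 1e-05, adjusted p = 0.00022; rho 0.68, permutation p = 1e-05), with r between 0.65 and 0.73 in the groups and 0.67 without the 2 farthest libraries. Nos1 went the other way (r = -0.62, permutation p = 1e-05, adjusted p = 0.00022; rho -0.56, permutation p = 0.00017; between -0.80 and -0.35 in the groups, and -0.54 without the 2 farthest libraries). The mean mitochondrial share was 20.2% in DMS against 22.7% in DLS for wild-type, and 22.4% against 24.8% for Foxp2hum/hum, so its mean differed between the regions in the direction of Pvalb. Chat also went down as this share went up (r = -0.47, permutation p = 0.00206, adjusted p = 0.0118; rho -0.39, permutation p = 0.0124; -0.36 without the 2 farthest libraries), and so did Ache (r = -0.52, permutation p = 0.00045, adjusted p = 0.00354; rho -0.39, permutation p = 0.0111; -0.43 without the 2 farthest). Adjusted over the 110 relations, the rhos of Chat and of Ache with this share did not pass (permutation test, adjusted p = 0.0544 for each). With this share as a covariate, the regional difference of Pvalb was -1.95 for wild-type (SE 0.16, limma adjusted p = 6.83e-14) and -2.45 for Foxp2hum/hum (SE 0.15, limma adjusted p = 5.04e-18), and that of Chat -0.88 and -0.83.

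Summed marker lists moved with the same members within groups. The septal and basal forebrain sum went up with Nos1 (r = 0.71, permutation p = 1e-05, adjusted p = 0.00022; rho 0.70, permutation p = 1e-05; 0.68 without the 2 farthest libraries). It also went up with Chat (r = 0.52, permutation p = 0.00043, adjusted p = 0.00354; rho 0.48, permutation p = 0.00107; 0.53 without the 2 farthest), Lhx6 (r = 0.49, permutation p = 0.00041, adjusted p = 0.00354; rho 0.52, permutation p = 0.00038; 0.52 without the 2 farthest) and Ache (r = 0.45, permutation p = 0.00237, adjusted p = 0.0118; rho 0.39, permutation p = 0.00925; 0.49 without the 2 farthest). The pallidal sum, mostly Etv1, went up with Nos1 (r = 0.63, permutation p = 2e-05, adjusted p = 0.000314; rho 0.59, permutation p = 7e-05) and down as Pvalb went up (r = -0.66, permutation p = 1e-05, adjusted p = 0.00022; rho -0.63, permutation p = 3e-05), or 0.54 and -0.57 without the 2 farthest libraries. The medium spiny sum went up with Chat (r = 0.45, permutation p = 0.00217, adjusted p = 0.0118; rho 0.44, permutation p = 0.00428; 0.44 without the 2 farthest) and Ache (r = 0.51, permutation p = 0.00078, adjusted p = 0.00505; rho 0.44, permutation p = 0.00384; 0.46 without the 2 farthest). Lhx8, not called between the regions, also went up with this sum (r = 0.49, permutation p = 0.00057, adjusted p = 0.00418; rho 0.39, permutation p = 0.00952; 0.34 without the 2 farthest). Adjusted over the 110 relations, the rho of Ache with the septal and basal forebrain sum did not pass (permutation test, adjusted p = 0.0501). Nor did that of Lhx8 with the medium spiny sum (permutation test, adjusted p = 0.0501). By Pearson's r, the mitochondrial share and 1 or more marker sums thus moved with each of Pvalb, Nos1, Chat and Ache. Their part in the relations between these members was not tested.

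Nos1, Sst and Npy are made by the same interneurons. Within groups Nos1 went down as Sst went up (r = -0.59, permutation p = 3e-05, adjusted p = 0.000412; rho -0.67, permutation p = 1e-05). Nos1 and Npy had r = -0.54 (permutation p = 0.00017, adjusted p = 0.00187; rho -0.61, permutation p = 3e-05), and for these pairs without the 2 farthest libraries r was -0.67 and -0.52. Pvalb went up with Npy (r = 0.73, permutation p = 1e-05, adjusted p = 0.00022; rho 0.69, permutation p = 1e-05; 0.69 without the 2 farthest libraries). Pthlh had r = 0.68 with Sst (permutation p = 0.0003, adjusted p = 0.003; rho 0.44, permutation p = 0.0036), which fell to 0.40 without the 2 farthest libraries. Its r of 0.56 with Npy (permutation p = 0.00414, adjusted p = 0.019; rho 0.26, permutation p = 0.0869) fell to 0.20 and rests on those libraries. Slc5a7 went down as the summed neuroblast markers went up (r = -0.59, permutation p = 9e-05, adjusted p = 0.0011; rho -0.60, permutation p = 5e-05; -0.55 without the 2 farthest libraries), in all 4 groups. That sum was mostly Tubb2b, so a relation to the other neuroblast markers is not shown by it. Values of a library share its size factor and its RNA, so these relations are between libraries, not between cells. Sst and Npy have 0.60 and 0.57 kb of exon against 10.9 kb for Nos1, and the part of exon length was not tested.

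**Figure D4:**
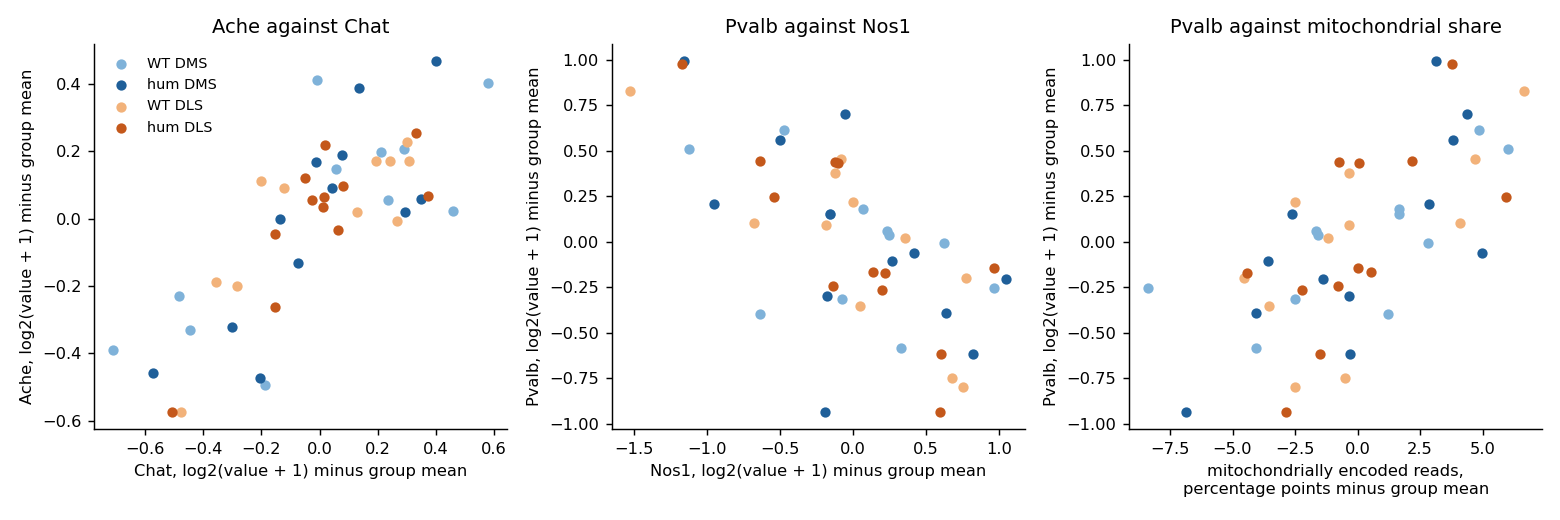
Ache against Chat (left), Pvalb against Nos1 (middle) and Pvalb against the share of mitochondrially encoded reads (right) in 46 libraries, each value as log2(value + 1), or percentage points, minus the mean of its group. Points are libraries coloured by group; r is 0.78, -0.68 and 0.68.

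The genes whose levels followed each member most closely across libraries within groups were sought among 12021 genes with a mean of at least 50. For Pvalb they were mt-Co2, a mitochondrially encoded oxidase subunit gene (r = 0.83), Scg5, a secretory granule protein gene (0.82), and Ido1 (0.82). For Nos1 they were Wdfy3, AC154446.1 and Nisch, each at r = 0.95, of which the latter 2 overlap and may share reads. Pfkl, Dclk3 and Usp11 came first for Chat (0.80, 0.80 and 0.79), and Chat itself came first for Ache (0.78), ahead of Prkcc (0.78) and Usp11 (0.77). For Slc5a7 they included Syt4 (0.70) and Gucy1a3 (0.67), and for Pthlh they were Clp1 (0.76), Apbb3 (0.69) and Sst (0.68). Lhx6 was followed by Fem1c, Myadm and Tmem132b (0.71, 0.71 and 0.69), Lhx8 by Spryd3, Grsf1 and Riok2 (0.60, 0.58 and 0.57) and Th by genes that included Mas1 and Xab2 (0.63 and 0.57). These genes were picked for the highest r among 12021, and the r were not tested. In single groups r ran from 0.93 to 0.98 for Nos1 with Wdfy3, but from 0.02 to 0.87 for Lhx6 with Myadm. For Lhx8 with Spryd3 it ran from 0.30 to 0.92, and for Th with Mas1 from 0.20 to 0.84. Calb2 had a mean under 50 and was not compared.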

How the data were processed

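The submitters' processing notes name mm9, TopHat 1.4.1, bedtools and DESeq, and the libraries ran on 3 flow cells per the labels, which do not say which ran where. The authors deposited a normalised signal per gene and library (counts divided by a DESeq size factor). Multiplied back, 100% of values were whole reads within 0.01. Groups were read from the header of the table. Reads appeared to be counted over whole gene spans on either strand: 3 genes nested in Myo3a summed to 99.6% of its mean. Positions are from GENCODE M1 (mm9).

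Limma 3.58.1 (R 4.3.3) was fitted on log2(value + 1) for 19561 genes, those averaging at least 10, with 4 group means over all libraries, two-sided, adjusted by Benjamini-Hochberg over all genes tested (threshold 0.05), and tested on simulated data. Alternatives were pseudocounts of 0.5 and 5, no filter, a mean of at least 50, edgeR 4.0.16, DESeq2 1.42.0, quantile normalisation, array weights, the compared groups alone, covariates, and leaving out libraries. Members and lists were chosen with earlier results of these data known. Named genes were the members, list genes that passed between regions, and the 3 genes most correlated with each member. Some of these genes are not reported here.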

Additional observations from a re-analysis of the deposited data

How the results depend on the processing

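Over the 14 alternatives other than leaving out single libraries, the log2 difference of Pvalb ran from -2.76 to -1.95 in wild-type and from -3.17 to -2.45 in Foxp2hum/hum and passed in each. In each genotype 1 member was called between regions with Ttr and Ccdc153 as covariates, and otherwise 5 to 7 and 4 to 5. Between genotypes and in the interaction it was 0 throughout. Without 1 library at a time it ran from 5 to 7 in wild-type and stayed at 4 in Foxp2hum/hum. No result that changed its sign was called in that setting (lowest adjusted p = 0.357, over limma, edgeR and DESeq2).

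With Ttr and Ccdc153 as covariates the regional difference changed sign in wild-type for Nos1 (1.05), Lhx8 (-0.040) and Ache (0.049), and in Foxp2hum/hum for Pthlh (-0.086), Nos1 (0.70) and Ache (0.0042). The genotype difference in DLS became -0.11 for Pvalb, -0.031 for Pthlh, 0.11 for Lhx6, 0.032 for Nos1 and 0.0084 for Slc5a7, and the interaction -0.055 for Chat, -0.11 for Slc5a7 and -0.044 for Ache. For Lhx8 the wild-type regional difference was -0.012 with edgeR, -0.013 with DESeq2, -0.068 with quantile normalisation and -0.067 with Ttr as covariate. The interaction of Slc5a7 was -0.034 with edgeR, -0.036 with DESeq2, -0.087 with array weights, -0.053 with Ttr and -0.083 with the cortical sum, and that of Th was -0.11 with array weights. In DLS the genotype difference of Pvalb was -0.066 with array weights, -0.0064 without libraries 70 and 72 and -0.18 with the mitochondrial share, and that of Lhx6 was 0.026 and 0.051 in the last 2 settings. The cause of these changes was not tested.

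Leaving out 1 library at a time, sign changes fell in these ranges: wild-type regional difference of Lhx8, -0.068 to 0.078. Genotype differences in DMS were -0.13 to 0.0080 for Lhx8, -0.12 to 0.015 for Slc5a7 and -0.024 to 0.23 for Th. In DLS they were -0.13 to 0.026 for Lhx6, -0.0029 to 0.19 for Pthlh, -0.075 to 0.098 for Pvalb and -0.085 to 0.15 for Th. Interactions were -0.015 to 0.094 for Ache, -0.18 to 0.11 for Calb2, -0.025 to 0.10 for Chat, -0.23 to 0.033 for Nos1, -0.056 to 0.079 for Slc5a7 and -0.072 to 0.23 for Th.

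No paired analysis was possible because the library numbers differ between the groups and the labels do not tie them to animals. Libraries of both regions from 1 animal, if there were any, were treated as independent in the regional tests. The fit with a mean of at least 50 left out Calb2, and the interaction was not refitted on the compared groups alone, since it uses all 4 groups. Calb2, the lowest member, had the widest intervals.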
